A study of Homo sapiens with 9 samples.

Results

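In MMS-treated cells, 167 autosomal γH2AX sites were found in both replicates and under no other condition. They were selected on the peak positions in 8 lists: a site was a peak of MMS replicate 1 that overlapped a peak of MMS replicate 2 by at least 1 bp and overlapped no peak of the untreated, APH or HU lists. The 167 sites were 1.37% of the 12202 autosomal peaks of MMS replicate 1, and the 8 lists held 213253 autosomal peaks in all. The series compared DNA damage marks under 3 replication stressors in a human lymphoblastoid line, a B-lymphocyte culture that the labels call GM09027A and the paper calls GM07027. Each of 4 groups had 2 ChIP-seq libraries: untreated cells, and cells given 0.1 μg/mL APH (aphidicolin, an inhibitor of replicative DNA polymerases), 2 mM HU (hydroxyurea, which depletes nucleotides) or 200 μM MMS (methyl methanesulfonate) for 24 h. All groups came from 1 cell line with no transgene or deletion named in the labels, and each library was a separate ChIP experiment. Peaks were called on each library alone against an input library, which was not analysed here.

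MMS adds methyl groups to DNA bases, mainly to guanine and adenine, and methylated adenine can block replicative polymerases. γH2AX is the histone variant H2AX phosphorylated around stalled forks and DNA breaks by the kinases ATR, ATM and DNA-PK, and it spreads along chromatin from the lesion. Most methylated bases are removed by base excision repair or by direct reversal, and forks that meet the remaining lesions are handled by translesion synthesis, repriming or fork reversal.

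The DNA that was shared by both replicates is shown for 3 of the 4 sites with the highest mean fold enrichment, as GRCh38 forward-strand sequence with CpG dinucleotides in capitals. The stretches are the overlap of the peaks of both replicates, limited to its central 200 bases, at chr10:124658188-124658265 (in FAM53B), chr16:12172745-12172780 (in SNX29) and chr2:18793323-18793522 (in no annotated gene). They are printed as examples of the DNA under the strongest sites.
FAM53B site: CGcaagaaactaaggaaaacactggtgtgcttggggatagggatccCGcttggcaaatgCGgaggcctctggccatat
SNX29 site: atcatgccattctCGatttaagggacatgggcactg
Intergenic site: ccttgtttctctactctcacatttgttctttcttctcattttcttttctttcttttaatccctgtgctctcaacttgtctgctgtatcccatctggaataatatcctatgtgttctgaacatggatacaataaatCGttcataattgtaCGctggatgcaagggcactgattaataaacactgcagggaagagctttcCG
None of the 3 stretches held a match to an Alu element or a perfect tandem repeat of at least 20 bp. Their GC content was 53.8% in FAM53B, 47.2% in SNX29 and 38.5% at the intergenic site, beside 41.0% of the assembled autosomal bases.

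The number of sites depended on both steps of the rule. Of the 12202 peaks of MMS replicate 1, 730 overlapped a peak of replicate 2, and 22.9% of these 730 were in no other condition. The other 563 replicated peaks also overlapped peaks of another condition, and 410 of the 730 overlapped HU, 327 APH and 250 the untreated lists. Peaks of replicate 1 that were free of the other conditions were found in replicate 2 in 2.44% of 6848 cases. Peaks that also lay in another condition were found in replicate 2 in 10.5% of 5354 cases. The same rule, applied to the other conditions, kept 61 of 4779 untreated peaks (1.28%), 517 of 17658 APH peaks (2.93%) and 26005 of 79891 HU peaks (32.6%), so the share under MMS was near that of untreated cells. These lists differ in the number of peaks, and the read depth behind them is unknown, so depth and treatment cannot be told apart in these shares.

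An overlap by position alone was the background for the count. If the peaks of MMS replicate 2 were spread evenly over the assembled autosomes, 28.8 peaks of replicate 1 free of the other lists would overlap one, and an even spread within each 1 Mb would give 50.1. The 167 sites were 5.81 and 3.34 times these values. Counted in the same way, MMS replicate 1 had 306 peaks that overlapped APH replicate 1 and no further list, which was 5.58 times the even spread over the autosomes and 2.99 times that within 1 Mb. With APH replicate 2 it shared 221 such peaks (5.19 and 2.92 times). With HU replicates 1 and 2 it shared 1067 and 825 such peaks (2.94 and 2.79 times over the autosomes), and with untreated replicates 1 and 2 it shared 38 and 51 (2.40 and 3.70 times). The ratio for the partner MMS replicate was the highest of the 7 on both scales, with APH replicate 1 next, and these ratios come from single lists with no replicate error. For peaks shared by the 2 replicates of a condition alone, the ratio to the even spread over the autosomes was 5.81 under MMS, the lowest of the 4 conditions, beside 19.98 in untreated cells, 8.30 under APH and 7.82 under HU. Against the even spread within 1 Mb it was 3.34, 2.90, 3.31 and 2.60 in the same order, so the order of the conditions changed with the scale.

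**Figure D1:**
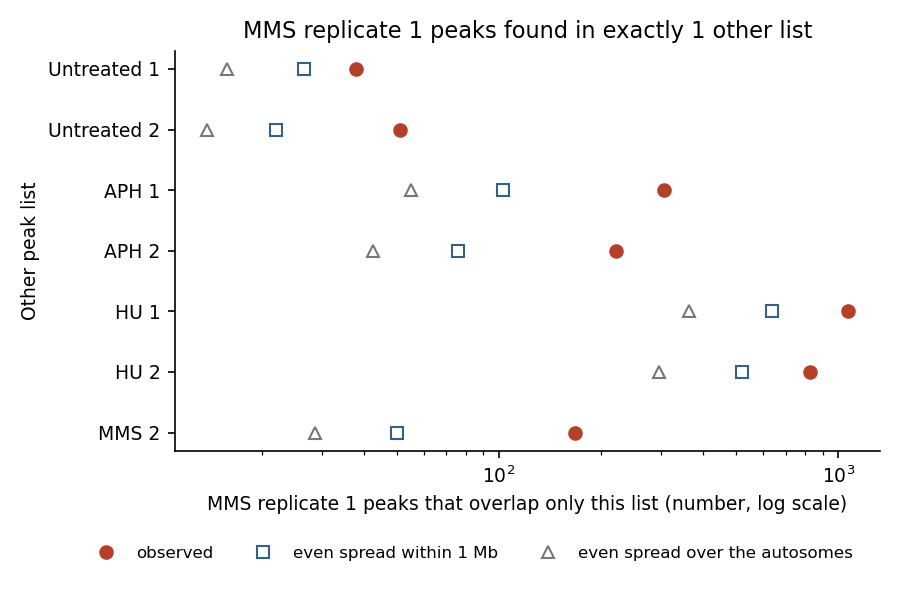
Number of MMS replicate 1 peaks that overlapped exactly 1 of the other 7 lists (filled circles, log axis), by list, with the number for an even spread of that list within 1 Mb (squares) and over the autosomes (triangles). The MMS 2 row holds the 167 sites, against 50.1 and 28.8, and APH replicate 1 has 306 against 102 and 54.9.

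The sites were weak peaks, as most peaks of the MMS lists were. Their fold enrichment, the ratio of ChIP signal to background as the authors' peak caller gave it, had a median of 2.65 in replicate 1 (2.37 to 3.52) and of 2.69 in replicate 2 (2.30 to 3.33). The medians of the whole lists were 2.64 and 2.64. The median −log10 p was 3.50 and 3.56 at the sites and 3.47 and 3.48 in the whole lists, where the lists stop at about 3.00. No site had a q-value of at most 0.05 in either replicate (the lowest were 0.0880 and 0.128), while 20 peaks in each whole MMS list did. In replicate 1, 86 sites were among the stronger 50% of the list and 14 among its strongest 10%, and 2 sites were among the strongest 10% in both lists. Fold enrichment was at least 3 in replicate 1 at 8 sites and in both replicates at 1 site. Across the 167 sites, fold enrichment in replicate 1 and replicate 2 had a Pearson correlation of 0.22 and a Spearman correlation of 0.27, a description over sites that share the same pair of libraries.

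**Figure D2:**
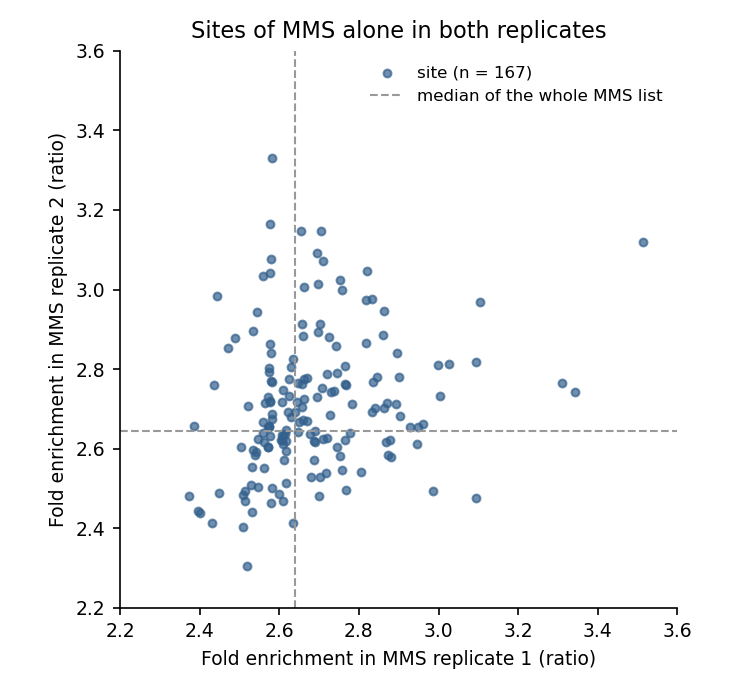
Fold enrichment (ratio) of the 167 sites in MMS replicate 1 (x axis) and MMS replicate 2 (y axis), 1 point per site, with dashed lines at the median of each whole list. The points spread around both medians (2.64 and 2.64), and 1 point, the site in FAM53B, lies above 3 on both axes.

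The sites were narrow, with a median width of 560 bp in replicate 1 (200 to 2516 bp) and 585 bp in replicate 2. The medians of the whole lists were 519 and 531 bp, and 19 sites were 1 kb or wider. The overlap between replicates had a median of 237 bp and ranged from 2 to 1533 bp. It was under 100 bp at 27 sites, and 80 sites had at least 50% of the replicate 1 peak covered by replicate 2. Together the sites spanned 108 kb.

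Of the 10 sites with the highest mean fold enrichment, 9 lay in protein-coding genes. The first was in an intron of FAM53B, at chr10:124658066-124658265, where the protein-coding gene ENSG00000258539 is also annotated, with 3.52 in replicate 1 and 3.12 in replicate 2. An intron of SNX29, a sorting nexin gene, held the second, at chr16:12172745-12172944, with 3.34 and 2.74. The third, in an intron of SLC66A2 on chromosome 18, had 3.31 and 2.76. At these 3 sites replicate 1 was the higher, and in SNX29 the replicates shared only 36 bp. The fourth, at chr2:18793257-18793590, was in no annotated gene and lay 204 kb from the nearest protein-coding start, that of NT5C1B, with 3.11 and 2.97. The fifth, at chr9:131437847-131438621 in an intron of PRRC2B, had 3.09 and 2.82. The site in ZNF687, a zinc finger gene, overlapped coding sequence at chr1:151286106-151286429 and was the higher in replicate 2, with 2.58 and 3.33.

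The remaining 4 of these sites lay in well-described genes. In FECH, which encodes ferrochelatase, the last enzyme of haem synthesis, a site of 1498 bp at chr18:57554665-57556162 overlapped coding and UTR sequence, with fold enrichments of 2.82 and 3.05. UPF2, a factor of nonsense-mediated mRNA decay, held an exonic site at chr10:11921135-11921557 with 2.70 and 3.15. This site has the shortest overlap between replicates of all, 2 bp, and an HU replicate 2 peak begins 99 bp away. TBC1D1, which encodes a GTPase-activating protein for Rab proteins, held an intronic site at chr4:38023641-38024060 with 3.03 and 2.81. BCR, the gene that is fused to ABL1 in chronic myeloid leukaemia, held an intronic site at chr22:23219630-23220525 with 2.86 and 2.95, at 29.2% of the gene from its start. A peak of HU replicate 1 lay 518 bp from it.

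The limits of the rule cut through sites of similar strength. Just inside were UPF2 with a replicate overlap of 2 bp, the site at the start of ANGPTL7 within MTOR with 5 bp (fold enrichments of 2.73 and 2.69), and another in B4GALNT3 with 9 bp (2.60 and 2.62). The sites closest to a peak of another list lay in DUSP22, 11 bp from a peak of APH replicate 1 (2.51 and 2.47), in ELAVL1, 29 bp from HU replicate 1 (2.83 and 2.77), and in TLE3, 33 bp from HU replicate 1 (2.69 and 3.09). Just outside, a replicated MMS peak in CDS2 was lost to an overlap of 4 bp with HU replicate 1 (2.70 and 2.73). Peaks in PEPD and ANO6 were lost to overlaps of 23 bp with untreated replicate 2 and 28 bp with APH replicate 2. At 18 of the 167 sites, the replicate 2 peak overlapped a peak of another condition while the replicate 1 peak did not.

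Most sites were close to peaks of the other conditions. The nearest peak of any of the 6 other lists lay a median of 2.56 kb away, within 1 kb at 49 sites (29.3%), within 10 kb at 131 (78.4%) and within 100 kb at 165 (98.8%). Among the 6681 peaks of MMS replicate 1 in no other list, 20.8% lay within 1 kb and 66.5% within 10 kb of such a peak. HU peaks were the closest, with medians of 8.23 and 8.05 kb to the 2 HU lists, while the medians were 22.98 and 32.82 kb to APH and 166 and 128 kb to the untreated lists. The order of the conditions is that of their numbers of peaks. The sites are thus regions where no peak of the other conditions was called at the same bases, and 36 of them had none within 10 kb.

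The sites were on 20 of the 22 autosomes. Chromosome 16 held the most, 17 sites, where 4.96 would lie there if they followed the assembled bases and 8.87 if they followed the peaks of MMS replicate 1. Chromosome 2 held 16 (14.6 and 11.8) and chromosome 4 held 12 (11.5 and 4.76). Per 100 Mb of assembled bases the density was 20.8 on chromosome 16, 20.4 on chromosome 22 and 15.4 on chromosome 19. At the other end it was 2.97 on chromosome 11. As a share of the replicate 1 peaks of a chromosome, the sites were 3.45% on chromosome 4, 2.62% on chromosome 16 and 0.605% on chromosome 11. Chromosome 13 held 0 sites among 231 peaks, which allows a share of up to 1.30%, and chromosome 21 held 0 among 205, which allows up to 1.46%. The limit on chromosome 21 lies above the 1.37% of all autosomes, so a lower share was not detectable there, and that on chromosome 13 lies just below it.

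**Figure D3:**
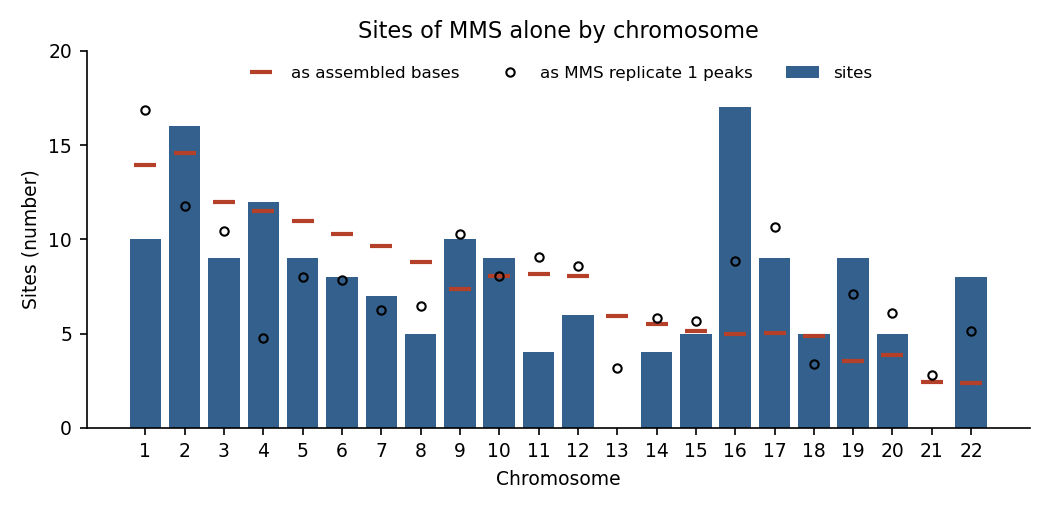
Sites per autosome (bars), with the number expected if the 167 sites followed the assembled bases (red dashes) or the peaks of MMS replicate 1 (open circles). Chromosome 16 has 17 sites against 4.96 and 8.87, and chromosomes 13 and 21 have 0.

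On chromosome 16 the sites were spread along both arms, from ANKS3 at chr16:4706392-4706984 to ANKRD11 at chr16:89351589-89352906. Of the 17 sites, 1 pair lay within 100 kb, in UBFD1 and NDUFAB1, and the fold enrichments ranged from 2.52 to 3.34 in replicate 1. The widest was a site of 2323 bp that lay wholly in coding sequence of the zinc finger gene ZNF646, with 2.87 and 2.71. A further site lay in NPIPB2, which belongs to a gene family with similar copies. The authors removed reads of low mapping quality, and how uniquely reads map at this site was not tested.

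The sites lay mostly in genes. Of 167, 142 (85.0%, exact 95% interval 78.7 to 90.1%) overlapped a GENCODE gene and 132 (79.0%, 72.1 to 84.9%) a protein-coding gene. Windows of 560 bp placed every 10 kb along the autosomes overlapped a gene in 62.2% and a protein-coding gene in 45.6% of cases. All MMS replicate 1 peaks did so in 77.9% and 67.5%, the peaks of replicate 1 in no other list in 77.3% and 65.5%, and the peaks in both replicates and another condition in 86.7% and 79.0%. The intervals cover counting error only. For protein-coding genes, the share of replicate 1 peaks found nowhere else lay below the interval of the sites, and that of replicated peaks shared with other conditions was the same to 3 digits. The corresponding shares of sites in any gene under the other conditions were 47.5% of the 61 untreated sites, 73.7% of the 517 APH sites and 64.4% of the 26005 HU sites.

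Within genes, introns held the largest number of sites. Each site was put in 1 class: 4 (2.40%, 0.656 to 6.02%) lay within 1 kb of a protein-coding start, 42 of the others (25.1%, 18.8 to 32.4%) reached an exon, 96 (57.5%, 49.6 to 65.1%) were intronic and 25 (15.0%, 9.93 to 21.3%) were intergenic. With those near a start included, 44 sites (26.3%, 19.8 to 33.7%) overlapped an exon, beside 17.9% of the replicate 1 peaks in no other list, 33.7% of the replicated peaks shared with other conditions and 10.8% of the windows. The midpoint of the site was in an exon at 14 sites (8.38%, 4.66 to 13.7%), beside 5.38% of windows. It was so for 11.3% of all MMS replicate 1 peaks, 9.94% of those in no other list and 16.7% of the replicated peaks shared with other conditions. By midpoint the sites were therefore not more often exonic than the other MMS sets. Coding sequence was overlapped by 29 sites (17.4%) and UTR sequence by 25 (15.0%), beside 4.79% and 4.34% of windows. The shares were 11.3% and 9.90% for all MMS replicate 1 peaks, and 18.1% and 18.3% for the replicated peaks shared with other conditions. The 4 sites near a start were at ANGPTL7, a secreted factor, at HYAL2, a hyaluronidase, at PTPN2, a tyrosine phosphatase, and at ZIK1, a zinc finger gene. The median distance to the nearest protein-coding start was 28.8 kb (22.6 to 38.8 kb), beside 28.0 kb for all MMS replicate 1 peaks, 45.0 kb for those in no other list and 89.6 kb for windows.

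**Figure D4:**
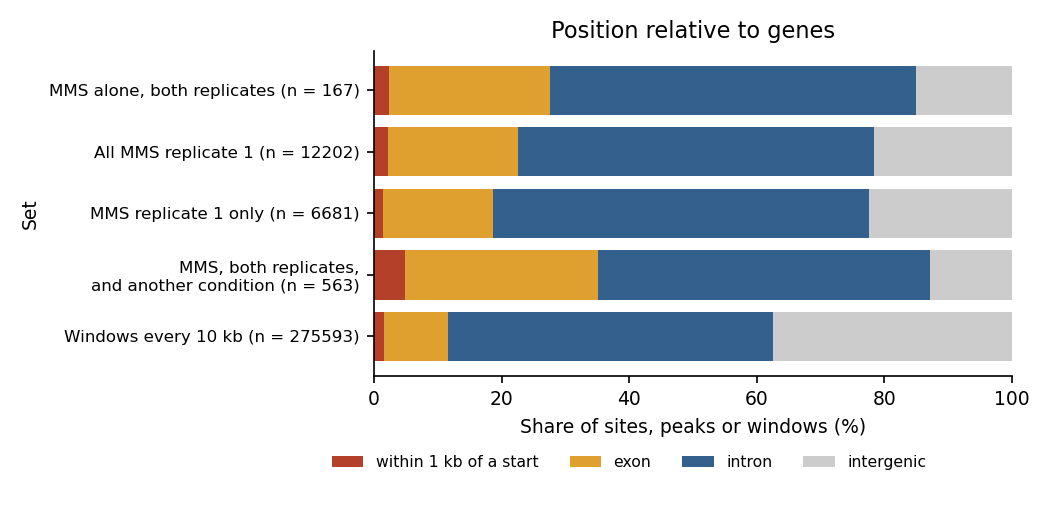
Shares (%) of sites, peaks or windows within 1 kb of a protein-coding start and, away from starts, in exons, in introns and intergenic, for the 167 sites, 3 other sets of MMS replicate 1 peaks and windows placed every 10 kb. The intergenic share is 15.0% for the sites and 37.5% for the windows.

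Along the genes, the sites showed no single preferred stretch. Counted from the start, 34 of 143 pairs of site and protein-coding gene (23.8%) fell in the first 20% of the gene, 31 in the next, then 28, 22, and 28 in the last. All MMS replicate 1 peaks had 21.8% in the first and 21.5% in the last 20%. Within 1 kb of a protein-coding end lay 6 sites (3.59%, 1.33 to 7.66%), beside 3.72% of all MMS replicate 1 peaks and 1.63% of windows.

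The genes that held a site were long. In the RefSeq annotation, 129 protein-coding genes held at least 1 site, with a median length of 95.7 kb (68.6 to 127 kb), beside 24.5 kb for all 19122 autosomal protein-coding genes. A base placed evenly in protein-coding genes meets a gene of 171 kb in the median, a measure that weights genes by their length. The nearest like measure, the median counted over sites, had an interval of 71.3 to 129 kb, which lies below 171 kb. With no peak of another condition allowed within 10 kb, 36 sites were left, and the 25 protein-coding genes that held them had a median length of 199 kb. That value is above the 171 kb, but it counts each gene once and no interval was computed for these 25 genes, so the difference is uncertain. Genes with any MMS replicate 1 peak had a median of 54.8 kb, and this set holds 4827 genes, many of which were hit at several places. Counted over sites rather than genes, the median was 97.8 kb at the sites, 84.7 kb at all MMS replicate 1 peaks and 119 kb at those in no other list. For sites found in both replicates of APH alone it was 154 kb, with HU sites chosen likewise at 46.7 kb and untreated ones at 37.9 kb. Genes over 500 kb numbered 3 and genes under 10 kb numbered 7.

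**Figure D5:**
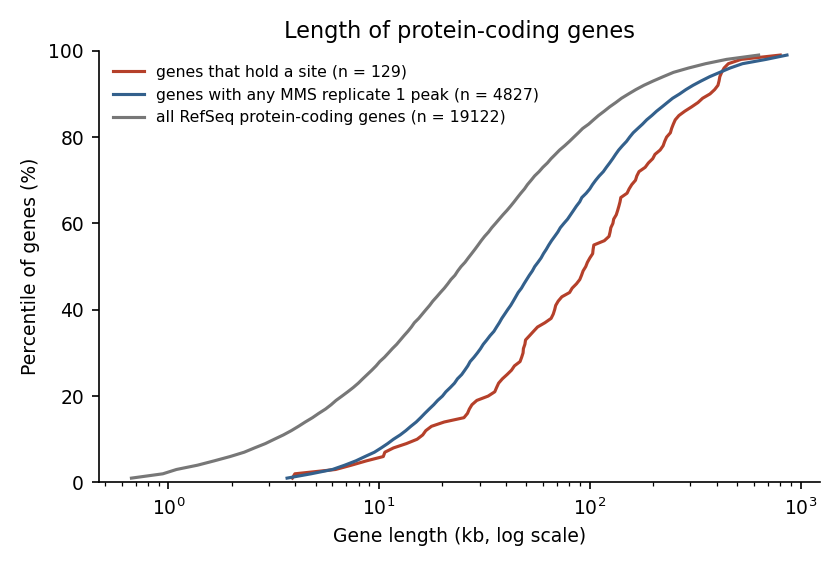
Percentiles of gene length (kb, log axis) for the 129 RefSeq protein-coding genes that hold a site, the 4827 with any MMS replicate 1 peak and all 19122 on the autosomes. The median is 95.7 kb for genes with a site and 24.5 kb for all genes.

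The 5 longest genes with a site carried it in an intron. AUTS2, a neuronal gene of 1195 kb, held 1 site at chr7:69814921-69815854 (2.73 and 2.74) among 21 and 6 APH peaks, 11 and 6 HU peaks and 3 and 3 untreated peaks in replicates 1 and 2. GRM7, which encodes a metabotropic glutamate receptor and spans 880 kb, held 1 site at chr3:7535652-7535925 (2.89 and 2.71) and 1 further peak of the other conditions, in APH replicate 1. SNX29, at 598 kb, held 16 and 15 MMS peaks, its site among them, with 23 and 12 HU peaks. FOXN3, a forkhead factor gene of 463 kb, held its site at chr14:89571317-89572181 (2.90 and 2.78). LTBP1, which encodes a protein that binds latent TGF-β and spans 453 kb, held its site at chr2:32958488-32959113 (2.47 and 2.85), with 1 HU peak elsewhere in the gene. The site was thus 1 of many peaks in AUTS2, SNX29 and FOXN3 and nearly the only one in GRM7 and LTBP1.

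The 3 shortest genes with a site had few peaks of any kind. RPL12, which encodes a protein of the large ribosomal subunit and spans 3.73 kb, held a site at chr9:127449775-127449974 (2.69 and 2.62) and 1 APH peak. CHMP4A, an ESCRT-III gene of 3.87 kb, held a site at chr14:24210886-24211773 (2.66 and 2.67) that overlapped coding sequence and 2 further annotated genes. ANKRD37, at 3.88 kb, held a site at chr4:185399395-185399608 (3.09 and 2.48) that also lies in UFSP2.

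Repeated hits of a gene were rare. Of 158 GENCODE genes with a site, 140 were protein-coding and 18 lncRNA genes, and 4 held 2 sites: TBC1D1, CDK5RAP2, ASAP2 and the lncRNA gene ENSG00000272558. TBC1D1 held sites at chr4:37915333-37915695 (2.68 and 2.53) and at chr4:38023641-38024060 (3.03 and 2.81), with 19 and 13 HU peaks in the rest of the gene. CDK5RAP2, which encodes a centrosome protein, held sites at chr9:120479586-120480731 (2.87 and 2.58) and chr9:120562975-120563752 (2.43 and 2.41). ASAP2, an Arf GTPase-activating protein gene, held sites at chr2:9223671-9224325 (2.58 and 2.86) and chr2:9318580-9319338 (2.61 and 2.62). Of the 140 protein-coding genes, 131 (93.6%) held a peak of another condition elsewhere in the gene, beside 92.2% of the 3172 genes with a replicate 1 peak in no other list. HU peaks lay in 115 and 105 of the 140 genes, APH peaks in 85 and 76, and untreated peaks in 32 and 37. This order of the conditions is that of their numbers of peaks. The like shares over all protein-coding genes were not computed for each condition, so these counts describe no trait of the genes with a site. The absence of other conditions therefore held at the site and, for 9 genes, over the whole gene as GENCODE annotates it.

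Few sites lay close to each other, though more than an even spread would give. Another site lay within 10 kb at 2 sites (1.20%), within 100 kb at 10 (5.99%, 2.91 to 10.7%) and within 1 Mb at 35 (20.96%, 15.1 to 27.9%). An even spread of 167 sites would give 0.120%, 1.20% and 11.3%. The intervals treat sites as independent, but sites near each other are counted together, so these intervals are too narrow. The share within 100 kb was 0% for the stronger 50% of each MMS list, 2.50% with at least 50% of the replicate 1 peak covered, 9.84% without APH replicate 1 and 13.8% when only replicated peaks of other conditions excluded a site. The median distance to the nearest other site was 4.09 Mb. Under the same rule, 38.5% of the 517 APH sites had another within 100 kb, where an even spread gives 3.67%, and 60.7% of the 61 untreated sites did, where it gives 0.434%. The MMS replicated peaks shared with other conditions had 42.98% (even spread 3.996%). The 6681 peaks of MMS replicate 1 in no other list had 58.5% (even spread 38.4%), so an excess over an even spread was not particular to the sites. In 1 Mb bins the variance-to-mean ratio was 1.05 for the sites, 10.7 for the 61 untreated sites and 3.95 for the 517 APH sites. It was 2.91 for the 6681 peaks of MMS replicate 1 in no other list. This ratio is near 1 for a random spread, and where peaks cluster it also depends on their number, so a small set can lie near 1. The most sites in a bin was 2, in 9 of the 158 bins with a site, and bins with a site held a median of 11 MMS replicate 1 peaks, beside 2 over all bins.

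The 5 pairs within 100 kb lay in different surroundings. The pair with the highest mean fold enrichment joined exonic sites in NATD1 (2.66 and 3.01) and in MAP2K3, a kinase of the p38 pathway (2.75 and 3.02), over 58.2 kb at chr17:21238255-21296456. The pair in UBFD1 (2.64 and 2.69) and NDUFAB1, the mitochondrial acyl carrier protein gene (2.86 and 2.70), spanned 28.7 kb at chr16:23564830-23593530, where each MMS list held 4 peaks. The pairs within ASAP2 and within CDK5RAP2 spanned 95.7 and 84.2 kb. The closest pair, 9.38 kb apart at chr6:25987748-25997791 beside the histone gene cluster, lay in TRIM38 and the lncRNA gene ENSG00000272558, with no peak of any other condition between them. The first 3 of the 9 bins by MMS replicate 1 peaks were at 12 to 13 Mb of chromosome 16 (23 replicate 1 peaks), 124 to 125 Mb of chromosome 10 (18) and 24 to 25 Mb of chromosome 14 (16).

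Sites were richer in GC than the windows. The interval of their share with an Alu match covered the shares of all MMS replicate 1 peaks and of the windows. LINEs and other interspersed repeats were not analysed here. The median GC content was 46.6% (45.0 to 47.4%), beside 45.8% for all MMS replicate 1 peaks. Pooled over their bases, the sites had 46.9% GC and the windows 40.9%. CpG dinucleotides numbered 11.1 per kb (8.93 to 12.3), beside 9.60 and 7.14. Alu matches overlapped 33 sites (19.8%, 14.01 to 26.6%), beside 24.9% of all MMS replicate 1 peaks and 24.7% of windows. Above that interval were the replicated peaks shared with other conditions (30.9%) and the HU sites (62.8%), both of which are wider. Pooled over bases, Alu matches made up 6.86% of the sites, 9.02% of all MMS replicate 1 peaks and 9.38% of windows, with no interval computed. Perfect tandem repeats of at least 20 bp with units of up to 6 bp were in 5 sites (2.99%, 0.979 to 6.85%), beside 4.38% and 8.17%. Chromosome ends (within 5 Mb) held 19 sites (11.4%), beside 14.5% of all MMS replicate 1 peaks, 42.1% of the replicated peaks shared with other conditions and 6.91 to 7.10% of windows (exact interval).

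Common fragile sites (CFSs) are bands that break under mild replication stress, and the list of CFS bands used by the study held 51 sites (30.5%, 23.7 to 38.1%), beside 26.6% of windows, 29.5% of all MMS replicate 1 peaks and 32.5% of the APH sites. The band with the most sites was q13 of chromosome 22, with 5, followed by FRA19A with 4, then FRA10F and FRA2M with 3 each. FRA16D, the band that holds WWOX, had 2. These bands are megabases wide, so a site in a band need not lie at the fragile region itself.

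Among genes that act on methylated DNA and stalled forks, few held a site. Of 18 genes of base excision and alkylation repair, 1 held a site, PARP1, which senses DNA strand breaks. The PARP1 site, at chr1:226391781-226392192 in an intron, had 2.54 in replicate 1 and 2.94 in replicate 2, and the gene held 7 and 6 HU peaks and 1 APH peak elsewhere. An even spread would place 0.0499 sites in these 18 genes. They also held 18 peaks of MMS replicate 1, where an even spread would give 3.65, so the even spread is a low background for them. Over the autosomes, 140 of 19111 protein-coding genes held a site. With 1 site, an excess over any background was not tested. MMS peaks of any kind lay in 10 of the 18 in replicate 1 and in 7 in replicate 2. HU peaks lay in 13 and 13 of them and APH peaks in 9 and 4, so such peaks were not particular to MMS. Over the autosomes, 5190 of 19111 protein-coding genes held a peak of MMS replicate 1. The like share of all genes was not computed for the other lists, which differ in size, from 79891 peaks in HU replicate 1 to 10465 in MMS replicate 2. Whether the HU and APH counts differ from those of other genes was therefore not tested. Of 15 fork checkpoint genes (ATR, CHEK1 and their partners) and of 13 genes of translesion synthesis and fork remodelling, none held a site, and an even spread would give 0.0452 and 0.0891. Of 20 large genes of CFSs, 1 held a site, AUTS2, where an even spread would give 1.81. These genes held 41 and 44 MMS peaks in replicates 1 and 2, where an even spread would give 132 in replicate 1. They held 373 and 128 APH peaks, of which FHIT had 163 and 48 and WWOX had 160 and 53. None of 15 B-cell genes prone to breaks and none of 11 B-cell identity genes held a site, with 0.0877 and 0.0688 under an even spread. A count of 0 among the 167 sites allows a share of up to 1.80%, so a difference from an even spread was not detectable in these short lists.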

How the data were processed

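γH2AX ChIP-seq peak lists of 8 libraries (2 each of untreated, APH, HU and MMS) were analysed. The authors aligned reads to GRCh38 with Bowtie2, filtered them with SAMtools and ran the broad mode of MACS2 on every library against input at a p-value limit (per the labels and the paper). The deposited columns are MACS2 output: a score (not used), the fold enrichment (a ratio to background), the −log10 of the p-value and the −log10 of the q-value. Peak lists hold no reads, so depth is unknown and intervals cover counting error only. Replicates were independent treatments per the study, and groups came from the labels.

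Autosomal peaks were intersected (at least 1 bp) in Python 3.11.15 with numpy 2.4.6, pandas 2.3.3 and scipy 1.17.1, and figures were drawn with matplotlib 3.10.9. Genes, exons and starts came from GENCODE release 44, gene lengths from RefSeq (GRCh38.p14) unless GENCODE is named, and CFS bands from the study's list. Alu elements were matches of at least 100 bp to an Alu copy found by BLAST 2.17.0 (E-value at most 1e-05). The even-spread values were computed in closed form from the numbers and mean widths of peaks. Shares carry exact binomial (Clopper-Pearson) 95% intervals and medians carry order-statistic intervals. No statistical test was run, because the rule used all 8 lists and regions are not replicates. The overlap functions were tested on simulated lists.

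The sites, gene lists and comparisons were chosen with earlier results of these data known. Sites were named by rule: the 10 highest by mean fold enrichment, genes with at least 2 sites, the 5 longest and 3 shortest genes, the 5 pairs, 3 bins, those nearest the limits of the rule, and gene lists counted whole. The sequence of 1 of the 4 highest sites is not reported here. Further genes, such as those on chromosome 16 and at starts, were named after their values were seen. Alternatives varied the overlap, the distance to other lists, the strength of peaks and the lists used.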

Additional observations from a re-analysis of the deposited data

How the results depend on the processing

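Of 65 values recomputed under the alternatives, 51 stayed within 1.5 times the count or within the 95% interval of the share or median reported, and 14 moved beyond it. The number of sites (167) moved to 80 when at least 50% of the replicate 1 peak had to be covered, to 36 with no other peak within 10 kb, to 52 for the stronger 50% of each MMS list, to 1 for a fold enrichment of at least 3 in both replicates, and to 327 when only replicated peaks of other conditions excluded a site. The gene share moved to 100% for that 1 site. The median gene length moved to 127 kb and 199 kb with no other peak within 1 kb and 10 kb. The share with another site within 100 kb moved to 2.50% with the 50% coverage, to 0% both for the stronger 50% and for the 1 site, and to 13.8% with replicated exclusion, and it was 1.20% within 10 kb and 20.96% within 1 Mb. Leaving out each of the 6 other lists in turn gave 172 to 229 sites. Leaving out a list can only keep or add sites, so the number could not fall, and these counts are among the 51. The same settings gave 83.7% to 86.0% in genes, a median gene length of 76.9 to 95.7 kb, and 5.81% to 9.84% with another site within 100 kb. Without HU replicate 1 the number of sites was the highest, 229. Exchanging the MMS replicates gave 172 sites. The causes of these shifts, beyond the smaller or larger number of peaks used, were not tested. An MMS replicate could not be left out, since the rule needs both. No paired analysis was possible because no result comes from a test.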

Other observations

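As GENCODE annotates them, 9 protein-coding genes had a site and no peak of the untreated, APH or HU lists in the gene. They were ANGPTL7, ZFP82, CHMP4A, SLC35F1, SAMD9L, RELL2, ARPC1B, CDH20 and SOCS2, named here after their values were seen. Their median length in GENCODE was 18.3 kb, beside 99.3 kb for the 131 genes with such a peak. A short gene has less room for a peak of any list, so a lower median is built into this choice. Some of these genes overlap longer genes that do hold such peaks. ANGPTL7 lies in MTOR, which held 3 peaks of APH replicate 1 and 3 and 2 HU peaks. The longest was SLC35F1, at 410 kb, which held 3 peaks of MMS replicate 1 and 1 of replicate 2, and next came CDH20, a cadherin gene of 222 kb, with 2 and 1. SOCS2, an inhibitor of cytokine signalling, and ARPC1B, a subunit of the actin-nucleating Arp2/3 complex, held 1 peak in each MMS list. In RefSeq, SOCS2 is longer, at 56.3 kb, and held 2 peaks of APH replicate 2 and 2 of HU replicate 2.

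The sites farthest from peaks of other conditions were also chosen after their values were seen. An intergenic site at chr8:41083206-41083754 (fold enrichments of 2.54 and 2.59) lay 172 kb from the nearest such peak, in APH replicate 2, and the site in GRM7 lay 107 kb from one in APH replicate 1. All other sites had a peak of another condition within 100 kb.

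With chromosome X added, the number of sites remained 167.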
